A study of Mus musculus with 4 samples.

Results

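Spinal cord was compared with brainstem/cerebellum in 24-week-old wild-type mice, to describe how the normal tissues differ in their neurons, glia, vessels and nerve roots. The comparison uses 2 of the 4 arrays of the series, chosen by their tissue and genotype labels and by no measured value. The mice carried a mixed background of C57BL/6, 129 and C3H. The other 2 arrays hold the same tissues of transgenic mice of the same age and background, named MSA Tg by the submitters after multiple system atrophy. In that neurodegenerative disease, oligodendrocytes hold inclusions of aggregated protein. The titles of all samples begin with PLP, and neither the transgene nor its promoter is spelled out in the sources used here. Whether each sample came from a single mouse or from pooled mice is not stated in the labels, nor whether the same mice gave both tissues. Their source field reads brain for all samples, while the tissue field gives spinal cord or brainstem/cerebellum. Each group has 1 array, so no difference below has a replicate check, and no p-value is given.

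Total RNA was labelled with Cy3 and hybridised to Agilent arrays in 1 colour. A level is the log2 of a spot's background-corrected signal minus the log2 of the 75th percentile of its array, so 0 marks that percentile and a step of 1 marks a 2-fold step. A difference is the wild-type spinal cord level minus the wild-type brainstem/cerebellum level, and a positive value means higher in spinal cord. Of 59305 spots per array, 59.2% to 64.0% were well above background and none was saturated. The 75th percentile of signal was 678 for wild-type spinal cord and lay between 410 and 458 for the other samples. The wild-type spinal cord array was alone on its slide, and the other 3 arrays shared another slide. Slide and tissue therefore cannot be told apart in the wild-type comparison. The transgenic tissues lay on 1 slide and share no array with the wild-type pair, so their list medians or gene levels are given beside the wild-type results. Repeated spots of a probe give the technical error within an array. It amounted to an SD of 0.09 between 2 spots of bright probes, and of 0.73 for the dimmest.

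Position along the neuraxis is written in the Hox genes, transcription factors in 4 clusters whose order on the chromosome follows the order of their expression from hindbrain to tail. Cells of the hindbrain express the early paralogue groups, and cells of the cord add later groups toward its caudal end. The cerebellum forms in front of the Hox domain and is made mostly of granule cells, which excite the Purkinje cells that carry the output of its cortex. The brainstem holds the serotonin and noradrenaline neurons that project through the nervous system. The spinal cord holds somatic motor neurons, the sensory circuits of the dorsal horn and long tracts wrapped in myelin by oligodendrocytes. Its roots pass through the meninges, and outside the cord their axons are wrapped by Schwann cells.

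The promoters of 6 genes are shown because the genes lead the differences in either direction and a promoter sequence was at hand. Hoxa7, Mira and Prx were among the genes with the largest excess in spinal cord, and Fat2, Gabra6 and Neurod1, genes of cerebellar granule cells, were among the lowest there. Each line gives the 250 bases before the RefSeq start, read toward the gene, from RefSeq on build GRCm38.p6. Hoxa7 lies at chr6:52218574-52218823 on the minus strand and Mira at chr6:52215289-52215538 on the minus strand. Prx lies at chr7:27499074-27499323 on the plus strand. Fat2 lies at chr11:55312258-55312507, Gabra6 at chr11:42321073-42321322 and Neurod1 at chr2:79456637-79456886, these 3 on the minus strand. Capitals mark each CG dinucleotide, the site at which DNA methylation acts in vertebrates.
Hoxa7: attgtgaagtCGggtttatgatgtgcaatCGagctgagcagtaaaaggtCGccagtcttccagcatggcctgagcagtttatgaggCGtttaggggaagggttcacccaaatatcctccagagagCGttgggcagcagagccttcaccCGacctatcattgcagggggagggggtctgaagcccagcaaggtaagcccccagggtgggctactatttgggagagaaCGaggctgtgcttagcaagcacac
Mira: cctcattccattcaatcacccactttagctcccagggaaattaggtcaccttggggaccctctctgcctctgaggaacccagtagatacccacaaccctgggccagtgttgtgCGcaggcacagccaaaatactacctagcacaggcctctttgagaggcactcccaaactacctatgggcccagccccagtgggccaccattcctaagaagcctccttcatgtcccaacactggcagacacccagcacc
Prx: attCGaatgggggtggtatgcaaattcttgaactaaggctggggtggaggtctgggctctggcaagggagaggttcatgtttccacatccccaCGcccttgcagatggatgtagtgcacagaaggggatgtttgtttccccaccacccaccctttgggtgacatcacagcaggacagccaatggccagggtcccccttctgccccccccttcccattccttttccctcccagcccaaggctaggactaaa
Fat2: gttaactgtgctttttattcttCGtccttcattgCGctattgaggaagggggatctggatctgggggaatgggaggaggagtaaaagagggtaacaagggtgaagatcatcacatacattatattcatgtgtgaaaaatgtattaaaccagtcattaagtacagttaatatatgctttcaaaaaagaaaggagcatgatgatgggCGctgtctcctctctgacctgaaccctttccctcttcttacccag
Gabra6: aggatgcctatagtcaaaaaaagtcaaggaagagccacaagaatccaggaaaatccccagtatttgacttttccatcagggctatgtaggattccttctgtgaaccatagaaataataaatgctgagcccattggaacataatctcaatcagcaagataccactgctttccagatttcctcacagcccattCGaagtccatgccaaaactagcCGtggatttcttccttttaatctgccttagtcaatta
Neurod1: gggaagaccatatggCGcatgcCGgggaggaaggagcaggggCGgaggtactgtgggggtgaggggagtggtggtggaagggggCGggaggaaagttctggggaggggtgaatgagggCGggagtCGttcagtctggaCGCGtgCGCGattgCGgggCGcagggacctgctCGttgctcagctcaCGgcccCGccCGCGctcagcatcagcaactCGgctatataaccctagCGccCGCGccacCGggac
The Neurod1 sequence held 22 CG dinucleotides and that of Hoxa7 held 7. The other sequences were poor in them, with 3 in Fat2, 2 in Prx, 2 in Gabra6 and 1 in Mira. Over the 27025 genes with a listed promoter the median was 6 per 250 bases, 38.1% held at most 3 and 14.6% held at least 22. Genes with a strong regional difference thus had promoters at both ends of this range. These counts describe the letters alone, and methylation was not measured.

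Of 16543 genes whose probe was well above background on both wild-type arrays, 1078 (6.52%) passed 2-fold toward spinal cord and 719 (4.35%) passed it toward brainstem/cerebellum. In the transgenic pair the shares were 10.1% and 6.21%. Every list count below is to be set beside these shares, and a count near them does not set a list apart from all genes. The median difference over all genes was -0.03, and the central 95% of genes lay between -1.34 and 1.47. At 4-fold the counts were 161 higher and 184 lower, at 8-fold 44 and 61, and at 16-fold 15 and 23. Genes lower in spinal cord were thus the more numerous past 4-fold, and genes higher there the more numerous near 2-fold. A further 1350 genes were well above background in spinal cord alone, and 259 of them passed 2-fold as a bound, the least fold that the background allows. In brainstem/cerebellum alone 325 genes were above background, with 207 past 2-fold as a bound. The transgenic pair had 674 genes above background in spinal cord alone and 717 in brainstem/cerebellum alone. The wild-type spinal cord array thus detected more genes in general than the wild-type brainstem/cerebellum array. Counts of detected list members below are to be read beside this. Scaling on the median moved the split of calls to 869 higher and 885 lower, and scaling on the spike-in controls moved it to 1400 and 584. The median of all genes then lay at -0.14 and 0.09.

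Hoxa7 had the largest difference toward spinal cord among genes measured on both arrays, with levels of 3.79 in wild-type spinal cord, -3.67 in wild-type brainstem/cerebellum, 2.30 in transgenic spinal cord and -3.08 in transgenic brainstem/cerebellum. It was 175-fold higher in wild-type spinal cord. Pcp2, a marker of Purkinje cells, had the largest difference in the other direction, with -1.82 in wild-type spinal cord, 6.19 in wild-type brainstem/cerebellum, -3.02 in transgenic spinal cord and 6.28 in transgenic brainstem/cerebellum. It was 258-fold lower in wild-type spinal cord. Both genes separated the 4 arrays by tissue with no overlap. The Hoxa7 probe maps to chromosome 6, 52165626 to 52165685, and the Pcp2 probe to chromosome 8, 3623377 to 3623436, in the mm9 coordinates of the files. The files give the gene of a probe and not its exon or untranslated region.

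The 12 largest differences toward spinal cord held 4 Hox genes and Mira, a noncoding transcript of the same cluster. Mira was higher by 6.59, with levels of 3.49 and -3.10 on the wild-type arrays and 2.61 and -3.03 on the transgenic arrays. Its probe lies at 52164490 to 52164549, next to that of Hoxa7, and whether the probes report separate transcripts was not tested. Prx, the periaxin gene of Schwann cells, was higher by 6.63. S100a9 and S100a8, subunits of the granulocyte protein calprotectin, were higher by 4.56 and 4.43. Tnnc2, the fast skeletal troponin C, was higher by 4.67. The remaining 3 genes, Vmn1r65, 4930449E01Rik and Vgll1, were higher by 5.09, 5.03 and 4.41 in the wild type and lower in spinal cord in the transgenic pair. Membership in the gene lists described below covered 43 of the 161 genes past 4-fold, with 7 Hox genes, 14 genes of muscle, fat or blood and 11 of meninges, Schwann cells or border macrophages.

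The 12 largest differences toward brainstem/cerebellum were led by cerebellar genes and genes of hindbrain nuclei. After Pcp2 came Crtam, an adhesion molecule of the immunoglobulin family, 237-fold lower in spinal cord with wild-type levels of -4.91 and 2.98. Its levels in the transgenic mice were -4.01 in spinal cord and 3.52 in brainstem/cerebellum. Fat2 (-6.70), Neurod1 (-6.30), Gabrd (-5.94) and Slc17a7 (-5.51) are genes of granule cells, and Ppp1r17 (-6.42) and Car8 (-6.24) are genes of Purkinje cells. Hes3, a repressor in the Notch pathway, differed by -5.60, with a level of -5.15 in wild-type spinal cord against -2.38 in the transgenic one. Tph2 and Dbh, which mark monoamine neurons, both differed by -5.31. Of 184 genes past 4-fold, 60 belonged to a list, with 28 cerebellar genes and 9 choroid plexus genes among them.

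**Figure D1:**
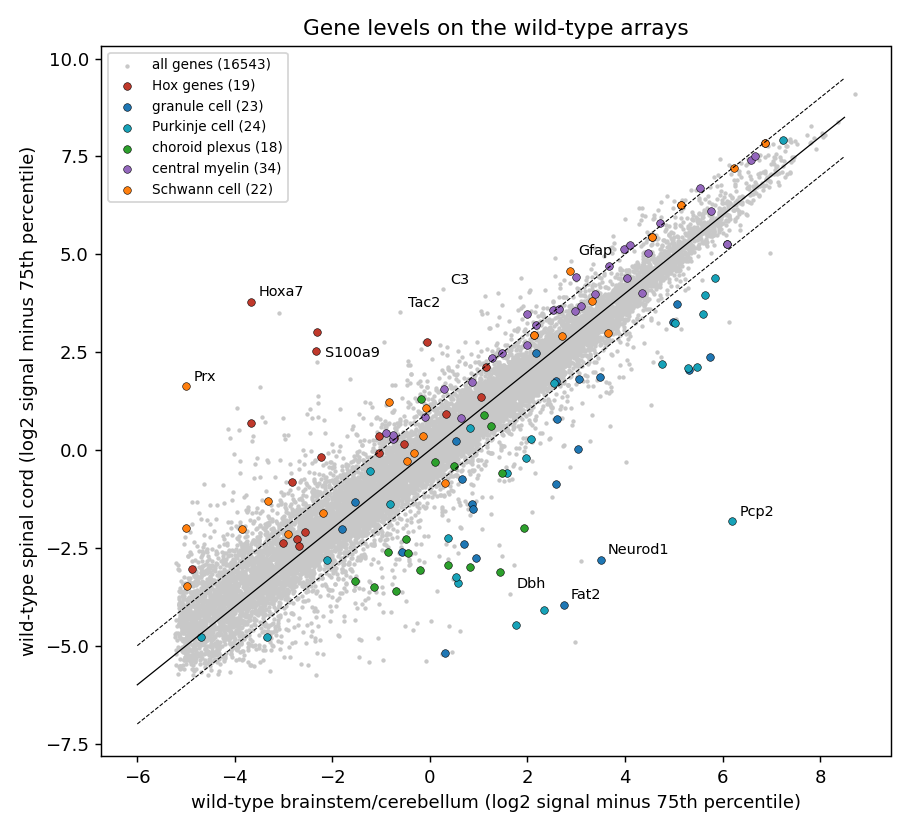
Levels of 16543 genes in wild-type brainstem/cerebellum (horizontal axis) and wild-type spinal cord (vertical axis), both as log2 signal minus the array's 75th percentile, 1 array each; the solid line marks equal levels and the dashed lines 2-fold. Of 23 granule cell genes 18, and of 24 Purkinje cell genes 17, were at least 2-fold lower in spinal cord. Of 19 Hox genes 10 were at least 2-fold higher, and most central myelin genes follow the upper dashed line.

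The Hox genes were higher in spinal cord throughout. Of 39 Hox genes, 19 were above background on both wild-type arrays, 15 in spinal cord alone, 0 in brainstem/cerebellum alone and 5 on neither. The 19 all had positive differences, under the other scalings and the other background correction as well. At least 2-fold were 10 of the 19, with 13 more as a bound. In a piece of tissue, fewer cells of a type and less RNA per cell cannot be told apart, here and in each result below.

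The difference was smaller in the early paralogue groups than in the middle ones. In groups 1 to 4, which are expressed in the hindbrain too, 2 of 10 genes measured on both arrays passed 2-fold and the median was 0.61, against 0.47 in the transgenic pair. Hoxb4, with levels of 0.91 in wild-type spinal cord and 0.33 in wild-type brainstem/cerebellum, differed by 0.58, and Hoxc4 (1.35 and 1.05) differed by 0.30. Hoxb3 (2.02, with 0.99 and 1.03 for its other probes) and Hoxb2 (1.40) were the members past 2-fold. Hoxd1, above background in spinal cord alone, was at least 3.14-fold higher, and Hoxb1 was above background on neither array. Hoxa2, Hoxa3, Hoxa4, Hoxd3 and Hoxd4 lay between 0.22 and 0.97.

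In groups 5 to 8 the gap opened. Of 8 members measured on both arrays 7 were at least 2-fold higher, with a median of 3.59 (3.82 in the transgenic pair), and the other 3 members were above background in spinal cord alone. Hoxa5 and Hoxb5 differed by 1.03 and 0.96, and scaling on the median took Hoxa5 to 0.92. Hoxc5 differed by 2.05 and Hoxb6 by 2.82, with Hoxb6 at 2.75 in wild-type spinal cord and -0.07 in wild-type brainstem/cerebellum. Hoxc6 (4.87), Hoxb7 (5.33) and Hoxb8 (4.36) were 20.6-fold to 40.3-fold higher. Hoxd8 was at 3.08 in wild-type spinal cord, and not well above background at -5.21 in wild-type brainstem/cerebellum. Its excess was at least 311-fold, that of Hoxc8 at least 157-fold and that of Hoxa6 at least 2.88-fold. On the transgenic arrays Hoxd8 stood at 2.83 and -4.61 and Hoxb7 at 2.35 and -1.52, so the tissues did not overlap there either.

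In groups 9 to 13 wild-type brainstem/cerebellum was at background except for Hoxa9. Hoxa9 alone was measured on both arrays, with levels of -3.03 and -4.88 and a difference of 1.85, which the background correction by normexp lowered to 0.71. The other 11 members above background were so in spinal cord alone, and 9 of them passed 2-fold as a bound. Hoxc9, Hoxb9 and Hoxa10 stood at 1.26, 1.16 and 0.84 in wild-type spinal cord, and their bounds were 89.9-fold, 83.9-fold and 67.3-fold. The bounds were 24.7-fold for Hoxc10, 15.6-fold for Hoxd9, 8.97-fold for Hoxa11, 6.54-fold for Hoxc11 and 4.82-fold for Hoxd10. A bound depends on how bright its probe is and sets no order between genes. Hoxb13, of the last group, stood at -2.87 in wild-type spinal cord and, not well above background, at -6.22 in transgenic spinal cord. Hoxc13 and Hoxc12 had bounds of 1.94-fold and 1.02-fold, and Hoxd11, Hoxd12, Hoxd13 and Hoxa13 were above background on neither array.

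**Figure D2:**
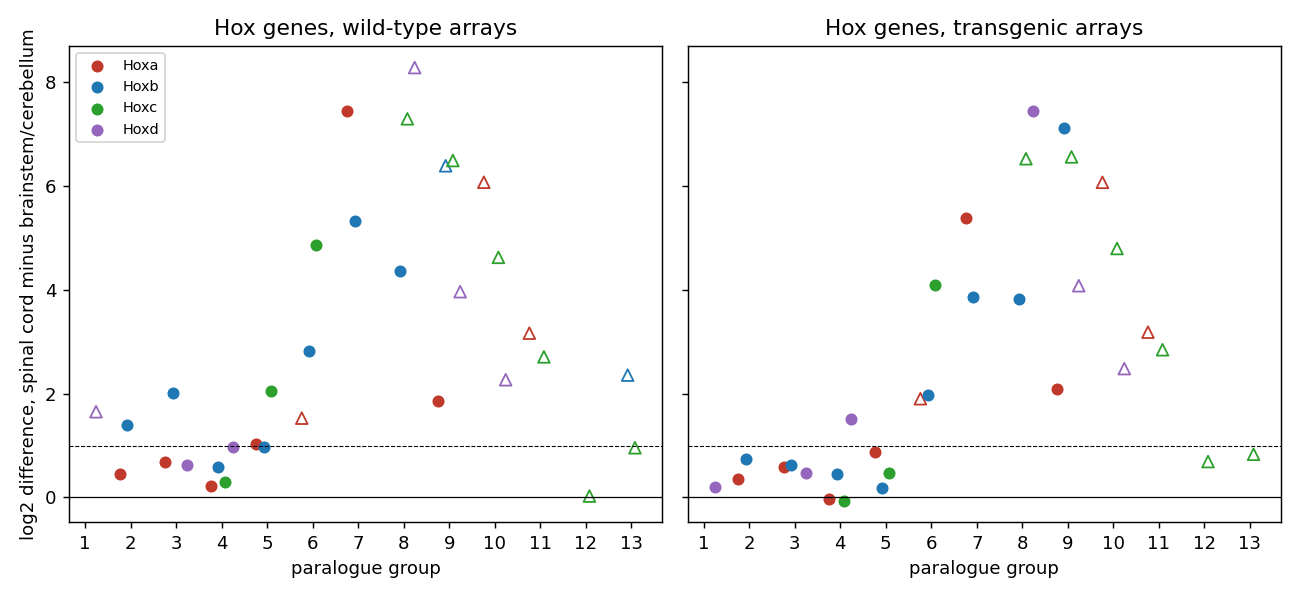
Log2 difference between spinal cord and brainstem/cerebellum (vertical axis) for the Hox genes described here by paralogue group (horizontal axis), 1 array per tissue, in the wild type (left) and the transgenic mice (right). Circles are genes above background on both arrays, open triangles are lower bounds, and the dashed line marks 2-fold; values stay near or below 2 up to group 4 and reach 7.45 at Hoxa7 in the wild type.

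Transcripts antisense to Hox genes differed in the same direction, each measured by its own probe. Hoxa11os was higher by 2.87 in the wild type (levels of -1.35 and -4.22) and by 2.91 in the transgenic pair. Hoxb5os was higher by 1.91, Hoxaas3 by 1.48 and Hoxaas2 by 0.77, and Haglr, beside the Hoxd cluster, by 2.07. Hoxd3os1 was above background in spinal cord alone, at least 9.94-fold higher. The partners that bind DNA with Hox proteins did not share the pattern: of 9 Pbx, Meis and Pknox genes measured on both arrays 0 passed 2-fold, and the lowest was Meis1 (-0.86). Cdx1, Cdx2 and Cdx4, caudal regulators of Hox genes in the embryo, were above background on neither wild-type array.

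Factors that pattern the midbrain and hindbrain were lower in spinal cord or close to equal. Of 17 members measured on both arrays 6 were at least 2-fold lower and 0 higher, with a median of -0.62 in the wild type and -0.35 in the transgenic pair. En2, the engrailed gene of the midbrain and cerebellum, was at -0.32 in wild-type spinal cord, 4.02 in wild-type brainstem/cerebellum, -0.84 in transgenic spinal cord and 3.79 in transgenic brainstem/cerebellum. It was 20.2-fold lower in wild-type spinal cord. Barhl2 (-3.41), Gata3 (-2.17), Irx2 (-1.91) and Irx1 (-1.29) followed. Lmx1a, a gene of the rhombic lip and roof plate, was above background in brainstem/cerebellum alone and at least 10.3-fold lower in spinal cord. Pax2, Pax8, Gbx2 and Fgf8, which also act in spinal cord or other tissues, differed by 0.25, 0.48, 0.09 and 0.31.

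Granule cell genes were the most uniformly lower of the neuronal lists. In spinal cord 18 of 23 members (78.3%) were at least 2-fold lower, against 4.35% of all genes, 0 were higher and the median was -2.04. The median was -2.54 in the transgenic pair. Gabra6, the alpha6 subunit of the GABA-A receptor that only granule cells are known for in the cerebellum, was at 3.95 and 4.03 in wild-type and transgenic brainstem/cerebellum. In spinal cord its probe (chromosome 11, 42120087 to 42120146, mm9) was not well above background at -7.99 and -7.60, and the wild-type difference was at least 835-fold. Fat2, a giant cadherin of parallel fibres, was at -3.96 in wild-type spinal cord and 2.74 in wild-type brainstem/cerebellum, 104-fold lower. Neurod1, a transcription factor of granule cells, was at -2.80 and 3.50, 79.1-fold lower, and stood at -3.58 and 3.36 on the transgenic arrays.

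The presynaptic and postsynaptic genes of granule cells followed. Slc17a7, the vesicular glutamate transporter of parallel fibres, was lower by 5.51, while Slc17a6, the transporter used by most spinal and brainstem excitatory neurons, was at 2.92 and 2.88. Cbln1, the precursor of cerebellin, which links parallel fibres to Purkinje cells, was lower by 3.27. Cbln3 was at least 43.3-fold lower. Grin2c, the NMDA receptor subunit of mature granule cells, was at 0.03 and 3.04, lower by 3.01, with -2.39 for its other probe. The Zic factors, which mark the granule cell lineage, were lower by 3.37 (Zic1), 3.09 (Zic2), 2.04 (Zic4) and 3.72 (Zic5), and 1 of 2 other Zic4 probes gave 0.13. The members that did not pass 2-fold, Cntn2, Rgs6, Tmem132d, Calb2 and Nfix, lay between -0.81 and 0.30. Reln and Etv1 passed with -1.25 and -1.72, and another probe of each gave -3.32 and -3.71.

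Of 24 Purkinje cell genes measured on both arrays, 17 (70.8%) passed 2-fold toward brainstem/cerebellum and 0 toward spinal cord, with a median of -1.96 in the wild type and -2.44 in the transgenic pair. Calb1, the calcium buffer calbindin, was at 2.09 in wild-type spinal cord and 5.28 in wild-type brainstem/cerebellum, and at 1.24 and 5.47 in the transgenic mice. It was 9.18-fold lower, and its level in the cord remained above the 75th percentile of the array. Itpr1, the calcium release channel of the endoplasmic reticulum, was lower by 3.37, and Atp2a3 by 3.79. Car8, which binds the Itpr1 channel, was at -4.47 and 1.77, 75.6-fold lower. Ppp1r17 stood at -4.08 and 2.34, and Arhgef33 was at least 47.8-fold lower. Slc1a6, the glutamate transporter of these cells, differed by -2.55. Ebf2 (0.71), Aldoc (0.68), Foxp2 (-0.08) and Plcb3 (-0.27) were the members closest to equal; Aldoc, also an astrocyte gene, had other probes at -0.25 and 0.06.

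Bergmann glia and the remaining cells of the cerebellum showed a smaller gap. Of 12 Bergmann glia genes 3 were at least 2-fold lower and 0 higher in the wild type, with a median of -0.35. Among 13 measured in the transgenic pair 5 were lower and 3 higher, and the median was -0.03. Gdf10, a growth factor of these glia, was at -1.19 and 2.5 in the wild type and -2.31 and 2.89 in the transgenic mice, 12.9-fold lower in wild-type spinal cord. Wif1 was at least 10.3-fold lower, while Hopx (-0.04) and Septin4 (0.04) were nearly equal. Slc1a3, the glutamate transporter GLAST, was lower by 2.14 on its brightest probe and by 0.44 on its other probe. Among genes of cerebellar interneurons, unipolar brush cells and nuclei, Eomes and Tbr1 were at least 15.5-fold and 5.32-fold lower, Lhx9 was lower by 3.37 and Kit by 2.62. Slc6a5, the glycine transporter of inhibitory nerve endings, was higher in spinal cord by 1.12.

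The choroid plexus, which makes cerebrospinal fluid inside the ventricles, was seen in brainstem/cerebellum. Ttr, the transthyretin gene, was at 6.53 in wild-type and 6.29 in transgenic brainstem/cerebellum. In spinal cord it was not well above background, at -6.94 in the wild type and -7.54 in the transgenic mice, and the wild-type difference was at least 4998-fold. That bound exceeded those of the other genes seen on 1 wild-type array alone. Of 18 members measured on both arrays 12 were at least 2-fold lower and 1 higher, with a median of -1.94 in the wild type and -1.97 in the transgenic pair. Another 6 members were above background in brainstem/cerebellum alone and all of these passed 2-fold as a bound, including Kcne2 (at least 133-fold) and Cldn2 (at least 13.1-fold). The bound for Otx2 was 138-fold, and its other probe gave -0.30.

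Plexus genes with a role in transport and hormone supply were lower together. Folr1, the folate receptor, was at -3.12 and 1.44, lower by 4.56. Clic6 differed by -3.92, Sostdc1 by -3.81, Kl, the klotho gene, by -3.30, and the bicarbonate transporter Slc4a5 by -2.87. Igf2 was the exception, higher in spinal cord by 1.49 with levels of 1.31 and -0.18, and it is also a gene of the meninges. Enpp2, shared with oligodendrocytes, differed by -0.81, and its other probes gave 0.33 and 0.47. Genes of ependymal cells, which line the ventricles and the central canal, were close to equal, with 1 of 35 higher (Foxj1, 1.09), 4 lower and a median of -0.14, against 0.14 in the transgenic pair.

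Several genes of monoamine neurons, whose cell bodies lie in the brainstem, were lower in spinal cord. Tph2, the enzyme of serotonin synthesis, was at -5.39 in wild-type spinal cord, -0.08 in wild-type brainstem/cerebellum, -6.0 in transgenic spinal cord, where it was not well above background, and -1.11 in transgenic brainstem/cerebellum. The serotonin transporter Slc6a4 was at -4.63 and 0.61 in the wild type. Both were far lower in wild-type spinal cord, with differences of -5.31 and -5.24. Fev, the transcription factor of these neurons, was lower by 1.02, and by 0.35 after normexp. The list as a whole had 6 of 11 lower, 0 higher and a median of -1.02 in the wild type. There were 3 of 10 lower and 1 higher in the transgenic pair, and the median was -0.54.

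Leading genes of noradrenaline neurons were lower in spinal cord too. Dbh, the enzyme that makes noradrenaline, was at -3.67 and 1.63 in the wild type and at -5.79 and 1.58 in the transgenic mice, where its spinal cord value was not well above background. The noradrenaline transporter Slc6a2 was at least 31-fold lower in wild-type spinal cord. Th, the enzyme of catecholamine synthesis, differed by -2.10 on its brightest probe and by -3.48 on its other probe. Slc18a2, the vesicular transporter shared by monoamine neurons, was lower by 2.58. Of 13 catecholamine genes 6 were at least 2-fold lower and 0 higher in the wild type, and the median was -0.85. The transgenic pair had 3 of 9 lower and 1 higher, and the median was -0.02, so the list as a whole was not shifted there. Pnmt, Npy, Gal, Maoa and Slc6a3 lay between -0.42 and 0.41, with Slc6a3, the dopamine transporter, near background at -4.70 and -4.28.

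**Figure D3:**
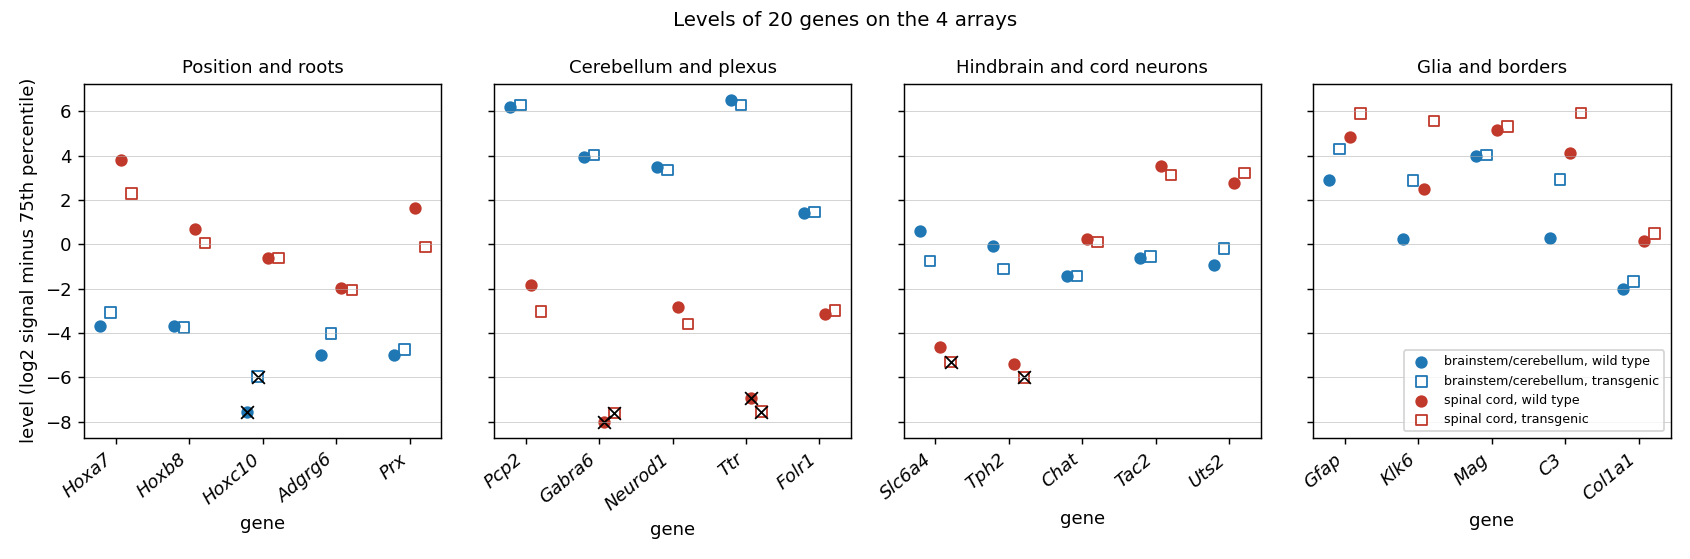
Levels of 20 genes (horizontal axis) on each of the 4 arrays as log2 signal minus the array's 75th percentile (vertical axis), with filled circles for the wild type, open squares for the transgenic mice, red for spinal cord and blue for brainstem/cerebellum; a black cross marks a value not well above background. For the genes of the first 3 panels both spinal cord values lie on the same side of both brainstem/cerebellum values, as for Hoxa7 with 3.79 and 2.30 against -3.67 and -3.08, while in the last panel Klk6 in wild-type spinal cord (2.49) lies below its transgenic brainstem/cerebellum value (2.88).

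Several motor neuron genes were higher in spinal cord, by less than the regional transcription factors. Chat, which makes acetylcholine, was at 0.23 in wild-type spinal cord, -1.44 in wild-type brainstem/cerebellum, 0.12 in transgenic spinal cord and -1.42 in transgenic brainstem/cerebellum. It was 3.19-fold higher, and a second, dimmer Chat probe gave 0.08. Slc18a3, the vesicular acetylcholine transporter, was at 2.98 and 1.54, higher by 1.45. Of 26 cholinergic and motor neuron genes 8 (30.8%) were at least 2-fold higher, against 6.52% of all genes, and 1 was lower (Prdm8, -2.27). In the transgenic pair 9 of 27 were higher and 5 lower, against 10.1% and 6.21% of all genes there. The list median was 0.57 in the wild type and 0.66 in the transgenic pair. The brainstem holds cranial motor neurons that express many of the same genes.

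Genes of somatic motor neuron identity were partly below background in brainstem/cerebellum. Isl2, a LIM factor of motor neurons, was above background in wild-type spinal cord alone (-1.83) and at least 10.6-fold higher. Mnx1, the homeobox factor of somatic motor neurons, was at -4.36 with a bound of 1.84-fold. Aldh1a2, which makes retinoic acid in limb-level motor neurons and in meninges, was higher by 1.75. Chodl and Mmp9, genes of fast motor neurons, were higher by 1.75 and 1.74, where the other Chodl probe gave -0.06 and normexp took Mmp9 to 0.75. Calcb and Calca, which encode calcitonin gene-related peptides, were higher by 2.10 and 1.16. Isl1 (0.60), Lhx3 (0.39) and Foxp1 (0.08) did not reach 2-fold.

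Peptides of the superficial dorsal horn stood out among sensory circuit genes. Tac2, which encodes neurokinin B, was at 3.52 in wild-type spinal cord, -0.61 in wild-type brainstem/cerebellum, 3.13 in transgenic spinal cord and -0.55 in transgenic brainstem/cerebellum. It was 17.5-fold higher and the largest difference of the dorsal horn lists. Nmu, neuromedin U, was higher by 1.89 in the wild type, with levels of 4.45 and 2.56, and stood at 7.21 and 4.93 in the transgenic mice. Its receptor gene Nmur2 was at least 7.69-fold higher. Grp and its receptor Grpr, known for itch transmission, were higher by 1.07 and 1.08, and Tacr1 and Tacr3, receptors for tachykinins, by 1.20 and 1.1. Nts was higher by 1.13, while Tac1 (0.41), Sst (0.61) and Cck (-0.17) did not pass 2-fold.

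Lists of dorsal and ventral horn neurons were mixed as a whole. Of 28 excitatory dorsal horn genes 7 were at least 2-fold higher and 3 lower, and the median was 0.31, against 0.36 in the transgenic pair. The lower members include Crh and Calb1, which is also a Purkinje cell gene. Of 21 inhibitory dorsal horn genes 3 were higher (Pdyn 1.64, Sall3 1.16, Cdh3 1.09) and 4 lower (Tfap2b -3.08, Lhx1 -2.37, Pvalb -1.92, Lhx5 -1.10). Their median was 0.24 and their mean -0.06, and the transgenic median was 0.02. Among 24 genes of ventral interneurons 1 was higher and 5 lower, and the median of -0.05 turned to 0.07 under spike-in scaling. The transgenic median was -0.34. Nr5a2 was above background in wild-type spinal cord alone, with a bound of 2.78-fold. Evx2 (0.78) and Chrna2, the nicotinic receptor of Renshaw cells (0.76), were below 2-fold.

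Neuropeptide genes beyond the dorsal horn added further markers. Uts2, which encodes urotensin 2, a peptide of motor neurons, was at 2.77 and -0.93 in the wild type and at 3.23 and -0.17 in the transgenic mice, 13-fold higher in wild-type spinal cord. Npb, neuropeptide B, was higher by 2.14, Ucn by 1.53 and Uts2b by 1.48. Uts2b differed by -1.22 in the transgenic pair. Rln3, the relaxin of the nucleus incertus, and Nps, made near the locus coeruleus, were above background in brainstem/cerebellum alone, with bounds of 14.8-fold and 5.66-fold. Of 45 neuropeptide genes 11 (24.4%) were at least 2-fold higher, against 6.52% of all genes. The 2 lower members (Ghrh -1.49, Crh -1.01) made up 4.44%, near the 4.35% of all genes. The median was 0.20, against 0.14 in the transgenic pair. There 7 of 44 neuropeptide genes were higher and 5 lower, against 10.1% and 6.21% of all genes. Peptides and granins common to neurons were near equal, such as Chga (0.20), Scg2 (-0.17) and Npy (0.24).

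General neuronal genes differed little, which sets the scale for the neuron lists above. Of 32 pan-neuronal and synaptic genes 0 were at least 2-fold higher and 1 lower (Syt1, -1.05), and the median was -0.21. The transgenic arrays had 4 lower and a median of -0.57. Rbfox3, which encodes the NeuN antigen, was at 4.47 and 5.11, and Snap25 at 6.03 and 5.53, with other Snap25 probes between -1.49 and 0.15. Of 23 axonal cytoskeleton genes 1 was higher and 0 lower, and the median was 0.26, against 0.00 in the transgenic pair. The neurofilament genes Nefm (1.17), Nefh (0.99) and Nefl (0.95) were all near 2-fold higher in the wild type, with Nefm at 0.97 after normexp. In the transgenic pair they differed by 0.15, 0.00 and 0.29.

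Receptor subunits differed in both directions. Of 30 genes of fast inhibitory transmission 3 were higher and 6 lower, and the median of -0.06 turned to 0.06 under spike-in scaling. On the transgenic arrays 10 were lower and 0 higher, and the median was -0.60. Subunits of cerebellar synapses were lower, with Gabrd, the delta subunit of tonic inhibition in granule cells, at -2.84 and 3.10, and Gabrb2 with a difference of -2.21. Gad1 and Gad2, which make GABA, were lower by 1.54 and 1.15, and the mean of their probes gave -0.82 and -0.98. Glycine receptor gene Glra1 was higher by 0.80 and Gabra5, Gabra3 and Gabra2 by 0.72 to 0.82, short of 2-fold. Gabra4 was higher by 1.88 on its brightest probe, with -0.90 on its other probe and -0.90 in the transgenic pair.

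Of 35 genes of excitatory transmission 1 was higher and 9 lower, and the median was -0.25, against -0.79 in the transgenic pair. The lower members were granule and Purkinje cell receptors and scaffolds named above, together with Shank3 (-1.89), Grm4 (-1.80) and Homer3 (-2.62, other probe -1.08). Grik1 was higher by 1.40, and its other probes lay between -1.01 and -0.64. Among 35 ion channel genes 0 were higher and 9 lower, and the median was -0.37. On the transgenic arrays 14 of 34 were lower, against 6.21% of all genes there, and the median was -0.82. Kcnj9, a potassium channel subunit, was lower by 1.88, Cacna1g by 1.69, Scn2a by 1.62 and Kcnd2 by 1.61. Channels of nodes and fast axons were near equal, with Scn8a at 0.00, Kcna1 at 0.27 and Kcna2 at 0.02.

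Central myelin genes were higher in spinal cord together. Of 34 members measured on both arrays 15 (44.1%) were at least 2-fold higher, against 6.52% of all genes, and 0 were lower. Their median was 0.96, between 0.85 and 1.08 over the scalings tried, and 0.82 in the transgenic pair. Mag, the myelin-associated glycoprotein that contacts the axon, was at 5.15 in wild-type spinal cord, 3.99 in wild-type brainstem/cerebellum, 5.33 in transgenic spinal cord and 4.03 in transgenic brainstem/cerebellum. Both cord values exceeded both brainstem/cerebellum values, and the wild-type difference was 2.23-fold. The summed signal of the list, in units of each array's 75th percentile, was 1287 and 750.3 in the wild type and 1331 and 833.4 in the transgenic mice.

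The excess was spread over myelin proteins, gap junctions and enzymes. Gsn, gelsolin, was higher by 1.44 and Gjb1, a connexin, by 1.05. Gal3st1, Ugt8a and Fa2h, enzymes of the myelin lipids sulfatide and galactosylceramide, were higher by 1.26, 1.07 and 1.03. Mal, Mobp, Opalin and Cldn11 were between 1.03 and 1.14. Mbp differed by 0.89, with other probes between -0.52 and 1.18, and Mog by 0.88, with other probes at 0.84 and 2.02. Ermn (-0.34) and Enpp2 (-0.81) were the members with negative values. Scaling on the median took Gjb1, Ugt8a and Fa2h to between 0.92 and 0.97. Genes used as references of tissue-independent expression had a median of 0.31 here with 0 of 16 past 2-fold, and ribosomal protein genes a median of 0.04, which scaling on the median turned to -0.07. Those medians were 0.05 and 0.42 in the transgenic pair.

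Genes of the oligodendrocyte lineage beyond myelin were less even. Olig2, a lineage factor, was higher by 1.34, Myrf by 1.14, Sox10 by 0.80 and Olig1 by 0.61. Among genes of oligodendrocyte states 7 of 28 were higher and 1 lower, and the median was 0.62, against 0.69 in the transgenic pair. Klk6, a kallikrein of spinal cord oligodendrocytes, was at 2.49 in wild-type spinal cord, 0.24 in wild-type brainstem/cerebellum, 5.57 in transgenic spinal cord and 2.88 in transgenic brainstem/cerebellum. It was 4.76-fold higher in the wild type, and the transgenic arrays lay above the wild-type array of the same tissue. Nkx2-9 was higher by 2.5, Egr2 by 2.01 and Pmp22 by 1.69, of which Egr2 and Pmp22 are also Schwann cell genes.

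Precursors differed less. Of 25 genes of oligodendrocyte precursors and newly formed oligodendrocytes 2 were higher (Enpp6 1.56, Olig2 1.34) and 1 lower (Tcf7l2 -1.43, with other probes between -1.35 and 1.47), with a median of 0.28. Pdgfra was at 0.74 and 0.44 and Cspg4 at -1.53 and -1.31 in the wild type. The wild-type shares, 8% higher and 4% lower, were near the 6.52% and 4.35% of all genes. In the transgenic pair 12 of 25 were at least 2-fold higher, against 10.1% of all genes there, and the median was 0.95. Of 38 genes of cholesterol and myelin lipid synthesis 5 were higher and 0 lower, and the median was 0.32, against 0.07 in the transgenic pair. These 5 were Cers2 (1.59, other probe 0.51), Gal3st1, Ugt8a, Fa2h and Scd1 (1.02). Enzymes of the cholesterol pathway stayed under 2-fold, as Hmgcs1 (0.34) and Fdft1 (0.71).

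Astrocyte genes split between a shared core and regional members. Gfap, the intermediate filament of fibrous astrocytes, was at 4.83 in wild-type spinal cord, 2.88 in wild-type brainstem/cerebellum, 5.91 in transgenic spinal cord and 4.31 in transgenic brainstem/cerebellum. It was 3.86-fold higher, and its other probe gave 2.07. Of 30 pan-astrocyte genes 3 (10%) were higher and 1 (3.33%) lower, not far from the 6.52% and 4.35% of all genes. The median was 0.24 in the wild type and -0.17 in the transgenic pair. Aqp4 (0.38), Aldh1l1 (-0.17), Slc1a2 (0.41) and Glul (0.32) did not pass 2-fold. Gja1, connexin 43, was higher by 3.49 on its brightest probe, while its other probes gave 0.19 and 0.78 and its transgenic difference was -0.27.

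Among 33 astrocyte region and reactivity genes 7 were higher and 5 lower, and the median was 0.62, against 0.64 in the transgenic pair. Myoc, an astrocyte gene of the glia limitans, was higher by 2.07, Cd44 by 1.62 (other probe 0.88), Thbs4 by 1.64 and Lcn2 by 2.38. Normexp took Thbs4 to 0.36. Lower in spinal cord were Crym (-2.90), Lhx2 (-2.53), Reln, Gria1 (-1.16) and Pax3 (-1.08). Crym was at -2.71 and 0.19 in the wild type but at 2.03 and 1.27 in the transgenic mice, where it differed by 0.76. Vim (0.93), Nes (0.94) and Timp1 (0.99) were just under 2-fold.

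Microglia genes were shifted toward spinal cord and mostly short of 2-fold. Of 24 homeostatic microglia genes 5 were at least 2-fold higher and 0 lower, and the lowest difference was 0.08 under this scaling. The median was 0.72, between 0.61 and 0.84 over the scalings tried, against 1.45 in the transgenic pair. P2ry12, the purine receptor of resting microglia, was at 0.15 and -1.15 in the wild type and -0.08 and -0.71 in the transgenic mice, higher by 1.30. Tmem119 was higher by 0.89, Cx3cr1 by 0.74 and Csf1r by 0.65. Siglech (1.79) and Olfml3 (1.34) were higher in the wild type alone, with -0.26 and -0.55 in the transgenic pair, and their other probes lay at 0.53 to 1.04 and at 0.65 and 0.92.

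Genes of reactive phagocytes and of border macrophages, those of the meninges and vessels, were shifted about as far as microglia genes. The wild-type medians were 0.75 and 0.72, and some members differed more. Lyve1, a hyaluronan receptor of border macrophages, was at -2.41 in wild-type spinal cord, -5.04 in wild-type brainstem/cerebellum, -1.99 in transgenic spinal cord and -3.64 in transgenic brainstem/cerebellum. It was 6.17-fold higher, and the tissues did not overlap. Its wild-type difference of 2.63 fell to 1.14 at the lowest over the scalings tried, and Mrc1 differed by 0.79. Cd163 was higher by 1.93, Folr2 by 1.92, F13a1 by 1.37 and Lgals3 by 2.12, and normexp took Cd163 and Folr2 to 0.85 and 0.71. Of 26 members 10 were higher and 2 lower (Cd209f -1.13, Clec10a -1.01), and the median was 0.75 in the wild type and 2.02 in the transgenic pair. The summed signal of the list was nearly equal in wild-type spinal cord and brainstem/cerebellum, at 214.1 and 213.5. In the transgenic mice it was 846.4 and 313.1. H2-Eb1, a class II antigen gene, was at 0.73 and -0.61 in the wild type, and at 6.55 and 3.98 in the transgenic mice.

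Complement genes were higher in part. C3, the central complement component, was at 4.10 in wild-type spinal cord, 0.27 in wild-type brainstem/cerebellum, 5.92 in transgenic spinal cord and 2.92 in transgenic brainstem/cerebellum. It was 14.2-fold higher, and its other probe gave 3.90. C4b was higher by 1.76, C1ra by 2.48, C1s1 by 1.17, and the inhibitor Serping1 by 1.21, with C1ra and C1s1 at 0.95 and 0.61 after normexp. The microglial subunits C1qa, C1qb and C1qc differed by 0.52, 0.47 and 0.69. Of 22 genes of interferon response, complement and class I antigen presentation 7 were higher and 0 lower, and the median was 0.78, against 1.05 in the transgenic pair. The interferon targets Ifit3 (0.53) and Oasl2 (0.68) stayed under 2-fold, while Ifi27l2a of the same list was higher by 1.32. Its transgenic difference was 0.48.

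Endothelial and mural genes differed little between the tissues. Of 32 endothelial and barrier genes 2 were at least 2-fold higher and 0 lower, and the median of 0.07 turned to -0.04 under scaling on the median. The transgenic median was -0.10. Cldn5, the tight junction claudin, was at 0.90 and 1.06 in the wild type and 1.55 and 1.53 in the transgenic mice, and Slc2a1, the glucose transporter, at 4.04 and 3.86 in the wild type. The members past 2-fold were Sox17 (2.29) and Slc7a5 (1.82), and they differed by -0.73 and -1.44 in the transgenic pair. Mural genes had 1 of 17 higher (Tagln, 1.19) and 1 lower (Myh11, -1.76, other probe 0.29), or 5.88% each way, near the 6.52% and 4.35% of all genes. Their median was 0.01, which scaling on the median turned to -0.10. The transgenic median was 0.20. Pdgfrb, the pericyte receptor, was nearly equal (-0.01).

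Genes of fibroblasts of the meninges and vessel walls were mostly higher. Of 29 members 19 (65.5%) were at least 2-fold higher and 3 lower, and the median was 1.20, between 0.91 and 1.32 over the scalings tried, and 1.0 in the transgenic pair. Col1a1, fibrillar collagen, was at 0.14 and -2.01 in the wild type and 0.50 and -1.67 in the transgenic mice, 4.45-fold higher in wild-type spinal cord. Col3a1 was higher by 2.52, Ogn by 2.29, Fmod by 2.01, Fn1 by 1.68 and Dcn by 1.28. The forkhead factors of the meninges Foxc1 and Foxc2 were higher by 1.08 and 1.21. Cemip (-1.51), Asgr1 (-1.08) and Tbx18 (-1.01) were lower. The summed signal of the list, in units of the 75th percentile, was 76.0 and 33.9 in the wild type and 98.0 and 44.6 in the transgenic mice. The amount of dura and arachnoid in each sample is not given, and its part in these values was not tested.

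Genes of peripheral myelin, made by Schwann cells, were measured in both spinal cord samples. Prx, whose protein links the myelin sheath to the Schwann cell skeleton, was at 1.63 in wild-type spinal cord, -5.00 in wild-type brainstem/cerebellum, -0.12 in transgenic spinal cord and -4.74 in transgenic brainstem/cerebellum. It was 98.9-fold higher in wild-type spinal cord (probe at chromosome 7, 28304999 to 28305058, mm9) and separated the tissues in both genotypes. Dhh, the hedgehog signal of Schwann cells, was at least 15.8-fold higher, Fxyd3 at least 5.46-fold and Cldn19, a claudin of Schwann cell mesaxons, at least 2.73-fold.

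Of 22 Schwann cell genes measured on both arrays 9 were at least 2-fold higher and 1 lower (Ngfr, -1.15), with 4 more higher as a bound. The median was 0.93 in the wild type and 1.31 in the transgenic pair. Adgrg6, the receptor that starts peripheral myelination, was higher by 3.01, Egr2 by 2.01, Gldn, which gathers channels at peripheral nodes, by 1.83 and Pmp22 by 1.69. S100b, Mbp and Sox10, which oligodendrocytes or astrocytes share, lay between 0.80 and 0.98. Of 20 genes of nodes and paranodes 3 were higher and 0 lower, and apart from Gldn, Ncmap (1.17) and Gjb1 (1.05) they were close to equal, with a median of 0.12, and 0.07 in the transgenic pair. Pmp2, Scn7a and Sbspon were above background on neither array. Of the whole list 27 members were above background in wild-type spinal cord, 22 in wild-type brainstem/cerebellum, 26 in transgenic spinal cord and 25 in transgenic brainstem/cerebellum. The shares of all spots well above background were 64.0%, 59.2%, 60.9% and 61.7% in the same order. Its summed signal was 588 and 298 in the wild type and 503 and 311 in the transgenic mice, and the central myelin genes it shares are part of that sum.

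Genes of the sensory neurons of the dorsal root ganglia were mixed. Of 29 listed genes 23 were above background in wild-type spinal cord and 19 in wild-type brainstem/cerebellum, where 64.0% and 59.2% of all spots were well above background. Trpv1, Scn10a, Scn9a, Mrgprd, Pou4f3 and Tmem233 were above background on neither wild-type array. Runx3 and Trpm8 were above background in spinal cord alone, with levels of -5.22 and -5.62, near the floor. Of 19 members measured on both arrays 2 were higher (Piezo2 1.85, Calca 1.16) and 5 lower (among them Scn11a -2.37, Etv1, Avil -1.61 and P2rx3 -1.48), with a median of 0.19 and a mean of -0.14. Normexp took Scn11a, Avil and P2rx3 to -0.72, -0.85 and -0.61, and the other P2rx3 probe gave -0.49. Scn11a was dim in wild-type spinal cord, at -5.65. Prph, shared by sensory and motor axons, was at 2.01 and 1.05. The transgenic arrays had 4 of 18 higher and 2 lower, and the median was 0.28.

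Genes of tissues outside the cord were measured too. Of 33 skeletal muscle genes 30 were above background in wild-type spinal cord, 23 in wild-type brainstem/cerebellum, 27 in transgenic spinal cord and 24 in transgenic brainstem/cerebellum. Over all spots the shares well above background were 64.0%, 59.2%, 60.9% and 61.7% in the same order. Tnni2, a fast troponin, was at 0.72 in wild-type spinal cord, -3.39 in wild-type brainstem/cerebellum, 0.58 in transgenic spinal cord and -2.18 in transgenic brainstem/cerebellum, and Tnnt3 was higher by 3.93 in the wild type. The fast myosins Myh2, Myh4 and Myh1 were above background in spinal cord alone, with bounds of 19.6-fold, 12.5-fold and 7.39-fold, and another Myh4 probe gave -0.45. Of 22 members measured on both arrays 10 were higher and 4 lower, and the median was 0.92, against 0.37 in the transgenic pair. The lower members Pvalb (-1.92), Tnnt1 (-1.72), Mybpc1 (-2.63) and Ryr1 (-3.45, other probe 2.68) include genes of cerebellar neurons. Neb was above background in brainstem/cerebellum alone, with a bound of 15.2-fold. The summed signal of the list, which holds Pvalb, was 49.6 and 133 in the wild type and 25.4 and 129 in the transgenic mice.

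More fat genes were above background in wild-type spinal cord than in the other samples. All 15 listed genes were above background there, 12 in transgenic spinal cord, 8 in wild-type and 7 in transgenic brainstem/cerebellum. The wild-type spinal cord array also had the highest share of all spots well above background, 64.0% against 60.9%, 59.2% and 61.7% in the same order. Fabp4, the fatty acid binding protein of adipocytes, was at 0.22 in wild-type spinal cord and -0.48 in transgenic spinal cord, and at least 43.7-fold higher in the wild type. Cfd, adipsin, was at least 19.3-fold higher. Adipoq was at -2.82 in wild-type spinal cord and not well above background on the other arrays. Ucp1, a gene of brown fat, was higher by 3.44 in the wild type, with levels of -1.33 and -4.77. Of 8 members measured on both arrays 4 were higher and 0 lower, and the median was 0.68. The transgenic pair had 2 of 7 higher and a median of 0.16. The summed signal of the list was 18.4 in wild-type spinal cord and between 8.74 and 9.66 in the other samples. What muscle and fat transcripts contribute to the other differences was not tested.

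Blood cell genes were higher in spinal cord in both genotypes. S100a9 was at 2.25 in wild-type spinal cord, -2.31 in wild-type brainstem/cerebellum, 2.83 in transgenic spinal cord and -3.27 in transgenic brainstem/cerebellum. Ltf, Ngp, Retnlg and Mpo, granule proteins of neutrophils and their precursors, were above background in spinal cord alone, with bounds between 4.35-fold and 7.66-fold, and Camp was higher by 2.23. Ahsp, a chaperone of haemoglobin in erythroid precursors, had a bound of 4.99-fold, while Hba-a1, Hba-a2 and Hbb-bt differed by 0.79, 0.82 and 0.87. The list had 20 members above background in each spinal cord sample and 16 and 15 in wild-type and transgenic brainstem/cerebellum, with summed signals of 515 and 469 against 297 and 262. Haemoglobin gene copies are nearly identical, so their probes may not be told apart. Of 15 members 7 were higher and 0 lower, and the median was 0.87, against 1.14 in the transgenic pair. Among lymphocyte genes Cd79b and Jchain of the B cell lineage had bounds of 3.73-fold and 4.28-fold, while Ms4a1, Cd79a, Cd8a and Cd3g were above background on neither wild-type array.

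**Figure D4:**
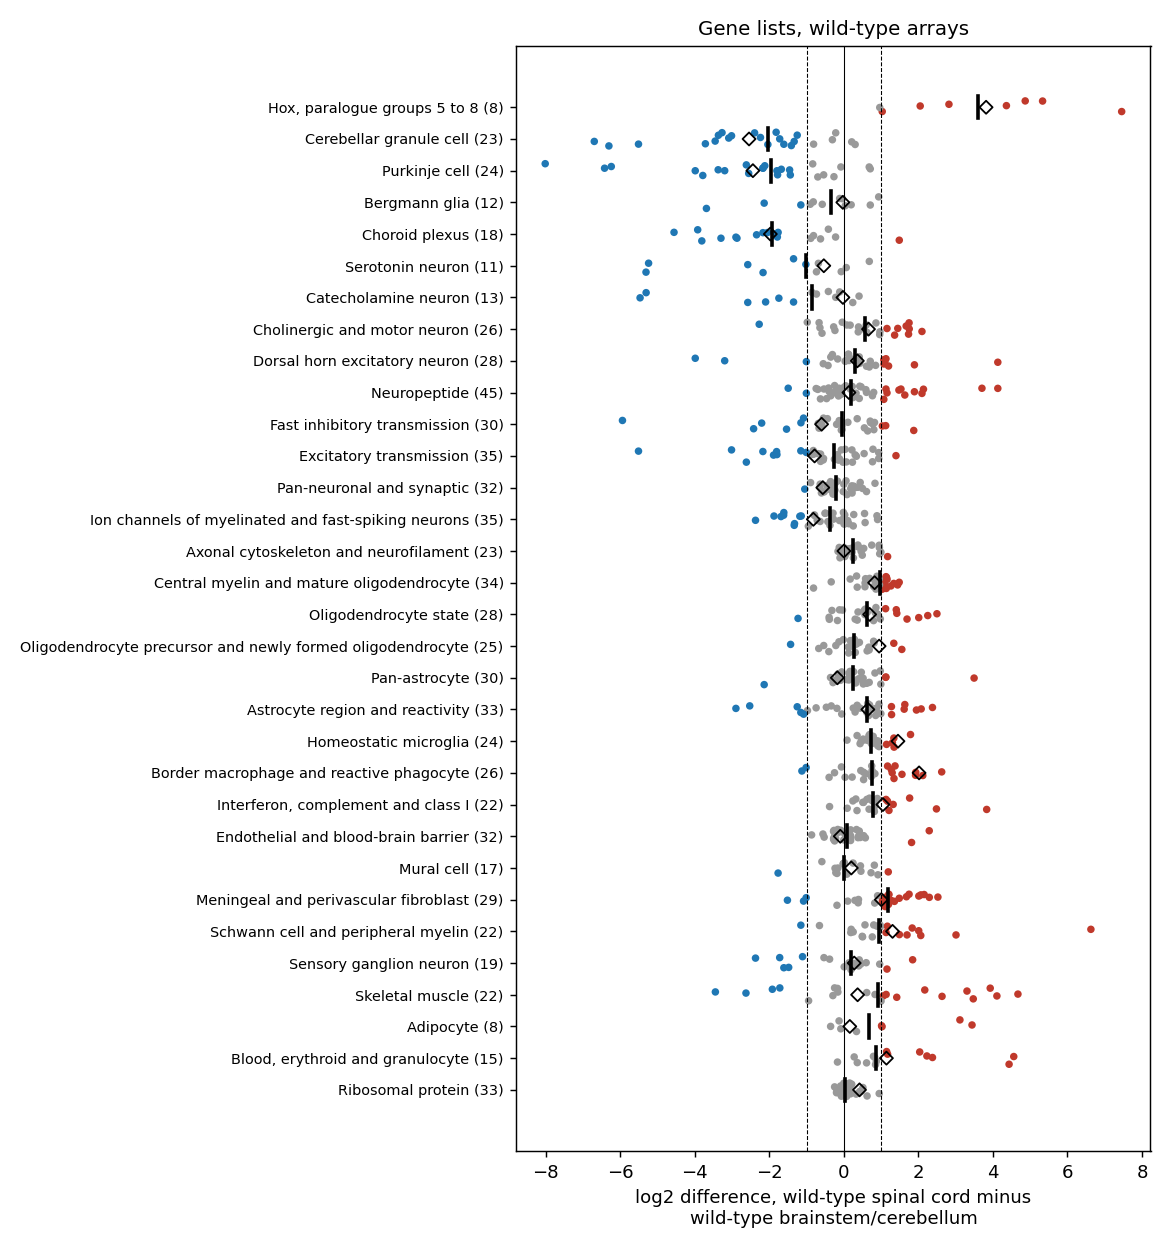
Log2 difference between wild-type spinal cord and wild-type brainstem/cerebellum (horizontal axis) for the members of each gene list that were above background on both arrays (their number in brackets), 1 array per tissue. Points are genes (red at least 2-fold higher, blue at least 2-fold lower), bars are the wild-type medians, diamonds the medians of the transgenic pair, and dashed lines mark 2-fold. The granule cell, Purkinje cell and choroid plexus lists lie to the left with medians near -2, and the Bergmann glia list has a median of -0.35. The Hox list of groups 5 to 8 lies to the right with a median of 3.59.

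The tissue difference was then set beside that of the transgenic pair. Among 16151 genes above background on all 4 arrays, 650 were at least 2-fold lower in wild-type spinal cord, and 447 of these (68.8%) were so in the transgenic pair, where 1014 genes were lower in all, so that the shared genes made up 44.1% of them. Of 1033 genes at least 2-fold higher in the wild type, 420 (40.7%) were so in the transgenic pair, or 29.2% of its 1437. The same sign was found for 93.1% of the lower and 75.4% of the higher genes. Past 4-fold in the wild type, 152 of 160 lower genes (95.0%) and 80 of 152 higher genes (52.6%) passed 2-fold in the same direction. Across these genes the correlation of both differences was 0.632, as a description over genes, which are not replicates. In the transgenic pair itself 10.1% of 16681 genes were higher and 6.21% lower.

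Genes that stood apart on 1 array were also counted. In wild-type spinal cord 346 genes exceeded the other 3 samples by 2-fold or more and 65 fell short of them by as much. Transgenic spinal cord had 824 and 213 such genes, wild-type brainstem/cerebellum 5 and 137, and transgenic brainstem/cerebellum 15 and 8. Without the genes that set wild-type spinal cord apart from the other 3 samples, 700 genes were higher and 654 lower in the wild type. These genes pass 2-fold toward or away from spinal cord by the way they were chosen, so the lower counts say how many calls they make up and nothing more. That array differs from the others in both slide and sample, and these cannot be told apart.

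In 53 genes the tissues differed by at least 2-fold in opposite directions, 45 of them higher in wild-type spinal cord. Vmn1r65, a vomeronasal receptor gene, was at 1.60 in wild-type spinal cord, -3.49 in wild-type brainstem/cerebellum, -4.54 in transgenic spinal cord and -2.85 in transgenic brainstem/cerebellum. Vgll1, a cofactor of TEAD transcription factors, was at 0.31, -4.10, -4.22 and -2.48 in the same order, and Sprr2g, a gene of cornified epithelia, at 0.82, -3.01, -4.57 and -2.53. In each of these the wild-type spinal cord array was far above the other 3. Gm30190, a predicted gene, showed the same, at 0.86 there and at most -4.45 elsewhere, and its bound of 68.1-fold is the only one among the 6 largest bounds toward spinal cord with a negative transgenic difference. Trim63, a ubiquitin ligase of muscle, was at 1.83, -1.65, -2.31 and -0.84, whereas Tnni2 and Tnnt3 were positive in the transgenic pair too.

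**Figure D5:**
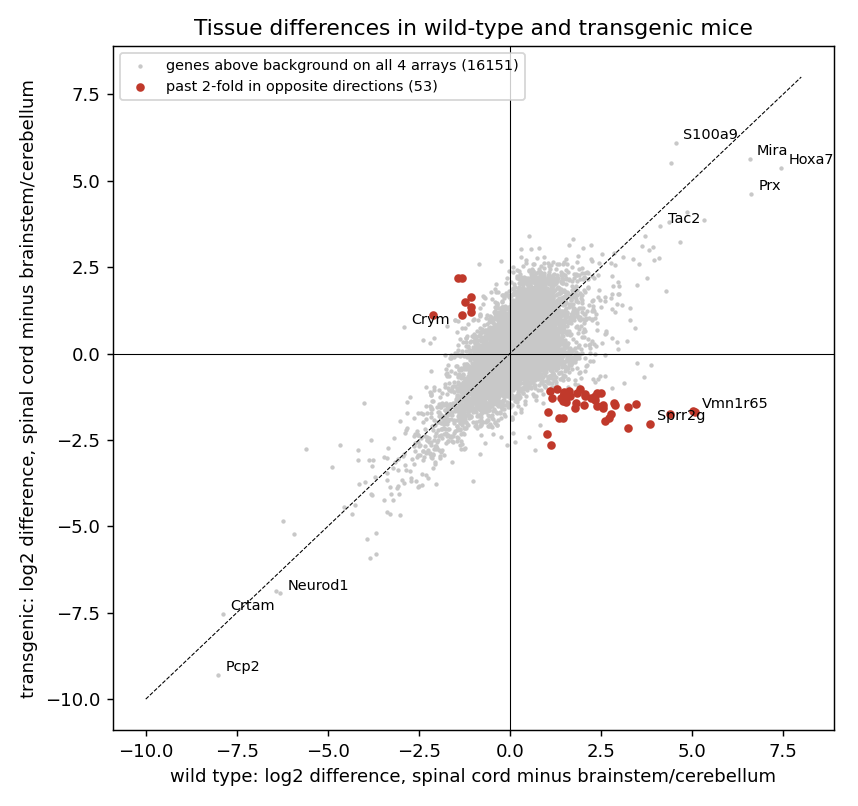
Log2 difference between spinal cord and brainstem/cerebellum in the wild type (horizontal axis) and in the transgenic mice (vertical axis) for 16151 genes above background on all 4 arrays, 1 array per group; the dashed line marks equal differences. Red points are the 53 genes past 2-fold in opposite directions, most of them at the lower right with a positive wild-type difference. Genes such as Pcp2, Neurod1, Hoxa7 and S100a9 share the sign of both differences and not always their size, as Hoxa7 with 7.45 and 5.38.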

How the data were processed

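Total RNA was extracted with TRIzol, column-purified, amplified and labelled with Cy3 from a low input, per the labels' protocols. As deposited, each scanner file gives linear intensities per spot, subtracted for background and detrended within the array. The file headers name Agilent Feature Extraction 10.7.1.1 and the submitters' processing notes 9.5.1.1. The authors' deposited series table was used as an alternative. Control spots and outlier spots were left out, spots of a probe were averaged, and log2 intensity minus the 75th percentile was computed. The probe with the highest mean over 4 arrays stood for a gene. Of 56605 probes 45270 carried a gene name, through RefSeq accessions (33895), symbols (9464), synonyms (489) or the symbol of the file alone (1422), and 26217 genes resulted. A bound compares the detected mean with the lowest signal well above background on the other array, or with the dim probe's own value where that is higher. Python 3.11.15, pandas 2.3.3, R 4.3.3 and limma 3.58.1 (normexp, quantile, cyclic loess) were used. The computation was tested on simulated data.

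With 1 array in each group, differences were described by size, at 2-fold, and no test was run. The number of arrays limits the precision. Genes named are the 12 largest differences and 6 largest bounds each way, the first and up to 6 most different members of each list, and genes opposite in the transgenic pair. Other list members were named for their role after their values were seen. Some genes under these rules are not reported here. Members and lists were chosen with earlier results of these data known.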

Additional observations from a re-analysis of the deposited data

Results flagged for a closer look

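Of the genes picked by the naming rules, 10 differed between the tissues by at least 2-fold in opposite directions in the wild-type and the transgenic pair. All 10 were higher in wild-type spinal cord. Genes named for their role, such as Uts2b, are not part of this count. The difference between the pairs was not tested, since each group has 1 array. The cause of these values was not tested, and the wild-type spinal cord array was the one on a slide of its own.

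Vmn1r65 differed by 5.09 in the wild type and -1.69 in the transgenic pair. The uncharacterised gene 4930449E01Rik differed by 5.03 and -1.65, with a level of 1.07 in wild-type spinal cord and at most -3.32 elsewhere. Vgll1 differed by 4.41 and -1.74, and Sprr2g by 3.84 and -2.04. For Trim63, the muscle ubiquitin ligase, the values were 3.47 and -1.47. In each of these genes wild-type spinal cord was the highest of the 4 samples and transgenic spinal cord the lowest.

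The predicted gene Gm32344 differed by 3.23 and -2.14. Slc12a8, a member of the cation-chloride cotransporter family, differed by 2.76 and -1.75, with levels of 2.58 and -0.19 in the wild type and -1.46 and 0.29 in the transgenic mice. Ttc34 differed by 2.72 and -1.87, while its other probe gave 0.35 in the wild type. Colca2 differed by 2.61 and -1.95. Slc7a5, the large neutral amino acid transporter of the blood-brain barrier, differed by 1.82 and -1.44, at levels of 3.19 and 1.37 in the wild type and 0.47 and 1.91 in the transgenic mice.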

How the results depend on the processing

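The counts of 1078 higher and 719 lower genes moved most with background correction, filter and threshold. After normexp with quantile normalization they were 490 and 406, with 1062 and 645 in the transgenic pair. With no filter on background they were 2563 and 1490, with 2882 and 2061 in the transgenic pair. At 1.5-fold they were 2576 and 1922, with 3138 and 2443 in the transgenic pair, and at 3-fold 319 and 300, with 688 and 407. Spike-in scaling gave 1023 and 2028 in the transgenic pair. Leaving out genes that set wild-type spinal cord apart from the other 3 samples, an alternative chosen after seeing the data that removes calls by its construction, gave 700 higher genes. For the other settings the cause was not tested.

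Settings were varied for the genes picked by the naming rules, and not for those named for their role, such as Grik1. Of 208 genes so picked and past 2-fold in the wild type, 0 changed sign. Of these 208 genes, 59 were under 2-fold under at least 1 other scaling, background correction or probe rule, most often normexp with 43 values. No list median past 2-fold reversed. Of 53 list medians, 15, all short of 2-fold, changed sign under at least 1 such setting, another filter, or as a mean in place of a median. Without the filter the thalamic and midbrain median went from -0.87 to 0.09 and the pituitary and pineal median from 0.22 to -0.30, and above the median signal the adipocyte median went from 0.68 to -0.08. No paired analysis was possible because each group has 1 array and shares no second replicate with another. Dim probes limit the precision, and differences below background are bounds alone.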

Other observations

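Lists that bear on dissection and handling of the samples were measured too. Pituitary and pineal hormone genes Gh, Prl, Pou1f1, Avp, Asmt and Tph1 were above background on neither wild-type array, while 6 of the 15 listed genes were above background on each, of which 2 were higher in spinal cord (Crx 1.47, Lhb 1.16). Normexp took Crx and Lhb to 0.77 and 0.43. Of 24 forebrain genes 16 were above background on each wild-type array, and of the 14 on both 2 were lower and 0 higher, with a median of -0.07. Their members Emx1, Dlx1, Dlx2, Dlx5 and Dlx6 were above background on neither wild-type array. Thalamic and midbrain genes had 5 of 10 lower and 0 higher (3 of 9 lower in the transgenic pair), among them Rora (-1.78), which Purkinje cells also express, and Nr4a2 (-1.74). Of 14 bone and cartilage genes 2 were higher (Omd 1.39, Sp7 1.31) and 1 lower (Cnmd -1.77), while Ibsp, Bglap and Col10a1 were above background on neither array. Normexp took Omd to 0.87 and Cnmd to -0.73. Lymphocyte genes had 4 of 6 higher and 0 lower.

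Activity-regulated genes were mixed in the wild type, with 2 of 25 higher (Egr2 2.01, Egr3 1.23) and 5 lower, and the median was -0.13, against 0.52 in the transgenic pair. Egr4 was at -3.24 in wild-type spinal cord, -0.73 in wild-type brainstem/cerebellum, -3.16 in transgenic spinal cord and -0.21 in transgenic brainstem/cerebellum. Bdnf, the neurotrophin, differed by -1.59 and Npas4 by -1.29. Fos (-0.32), Arc (-0.11) and Egr1 (-0.18) were close to equal. Atf3, an injury-induced factor, differed by 0.29 in the wild type and 2.08 in the transgenic pair, with 1.31 in transgenic spinal cord against -2.36 in wild-type spinal cord.

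Stress and housekeeping lists moved little. Of 22 heat shock and unfolded protein genes 1 was higher, Hspb1, at 4.97 and 3.56 in the wild type. Its difference was 1.40, and 1.20 in the transgenic pair. Of 24 glucocorticoid and circadian genes 0 were higher and 2 lower, of 35 oxidative phosphorylation genes 2 higher and 0 lower, and of 33 ribosomal protein genes 0 in either direction. The Y-linked genes Ddx3y, Eif2s3y and Uty were above background on neither wild-type array, and Xist was at -1.81 and -1.5. Kdm5d, also Y-linked, was at -2.79 and -4.04 in the wild type.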
